A study of Mus musculus with 25 samples.

Results

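The 10 genes of fatty acid uptake and binding described here were measured in mouse liver and liver tumors: the fatty acid translocase *Cd36*, the lipoprotein lipase *Lpl*, the very low density lipoprotein receptor *Vldlr*, the fatty acid transport proteins *Slc27a2*, *Slc27a4* and *Slc27a5*, the fatty acid-binding proteins *Fabp1*, *Fabp2* and *Fabp4*, and the nuclear receptor *Pparg*. The 10 genes were taken by symbol from the 48795 genes in the files, and all 10 were among the 15625 that passed a filter on low counts. Polyadenylated RNA of 25 tissue samples from male C57BL/6J mice was sequenced in 5 groups. Liver of mice that were not injected came from animals on the control diet (nonDEN-L-CD, n = 3) or the western-style diet (nonDEN-L-WD, n = 4). The remaining mice had received the carcinogen diethylnitrosamine (DEN) once, at 25 mg/kg into the peritoneum at 2 weeks of age, and gave whole liver on the control diet (DEN-L-CD, n = 4), and, on the western diet, the liver around tumors (DEN-PT-WD, n = 8) and the tumors themselves (DEN-T-WD, n = 6). Diets began at weaning and tissue was collected from 36 weeks of age. Tumors in DEN-L-CD livers, being small, could not be dissected reliably, so that this group can hold tumor tissue. DEN-PT-WD was taken apart from tumors, and a difference of diet between these groups cannot be told apart from that difference in tissue. The labels state neither that samples of a group came from separate animals nor whether tumors and surrounding liver came from the same mice, and the p-values measure the spread between these samples.

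Hepatocytes receive fatty acids as free acids from the blood and as lipoprotein triglyceride, which LPL splits at the vessel wall and VLDLR can take up as whole particles. CD36 and the SLC27 proteins move fatty acids across or trap them at the membrane, the latter by joining them to coenzyme A, and SLC27A5 is best known in liver for activating bile acids. FABPs carry fatty acids through the cytosol: FABP1 is the abundant form of hepatocytes, FABP2 of the intestine, and FABP4 of adipocytes and macrophages. PPARG, the master regulator of adipocytes, is low in normal liver and rises in fatty liver, where *Cd36* and *Fabp4* are among its known targets.

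PPAR proteins bind DNA with a retinoid X receptor partner at repeats of the hexamer AGGTCA that are spaced by a single base. The sequence before RefSeq start sites of the genes is shown for this reason. RefSeq windows (GRCm38.p6) were matched by symbol for 7 of the 10 genes, which have 10 windows. AGGTCA stood on either strand in the 250 bases before the RefSeq start site in 5 of these 10 windows, those of *Cd36*, *Fabp1* and *Slc27a2* and 2 of *Pparg*, and in 14% of the 32851 windows of all genes. The RefSeq starts differ from the gene positions given below. Within those positions the windows shown for *Cd36*, *Slc27a2* and *Pparg* lie wholly inside the gene. That of *Fabp1* runs past the first base of the gene, and its match from base -9 to -4 lies inside it. A spaced repeat, AGGNCANAGGNCA on either strand, was found in 0.338% of all windows and among these genes in that of *Fabp1*, from base -67 to -55, where it overlaps an AGGTCA match. Capitals mark the matches, and each line is read 5′ to 3′ on the strand of the gene. A match describes the letters only.
*Fabp1* (chr6:71199629-71199878, + strand): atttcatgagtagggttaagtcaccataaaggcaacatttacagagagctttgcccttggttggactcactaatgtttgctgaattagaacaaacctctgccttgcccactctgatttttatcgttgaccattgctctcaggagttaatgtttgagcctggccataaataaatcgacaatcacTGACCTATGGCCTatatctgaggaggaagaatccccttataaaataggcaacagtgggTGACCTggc
*Cd36* (chr5:17835897-17836146, - strand): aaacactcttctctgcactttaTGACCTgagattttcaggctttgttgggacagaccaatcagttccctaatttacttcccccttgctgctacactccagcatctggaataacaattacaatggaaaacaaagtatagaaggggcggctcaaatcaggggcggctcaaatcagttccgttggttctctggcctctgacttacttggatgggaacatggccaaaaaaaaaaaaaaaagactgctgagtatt
*Slc27a2* (chr2:126552774-126553023, + strand): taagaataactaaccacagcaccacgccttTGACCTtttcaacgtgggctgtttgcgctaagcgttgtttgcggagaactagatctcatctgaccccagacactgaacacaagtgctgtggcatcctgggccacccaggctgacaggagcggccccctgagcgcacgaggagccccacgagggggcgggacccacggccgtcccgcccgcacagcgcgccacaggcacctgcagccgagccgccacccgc
*Pparg*, the second of its 3 start sites (chr6:115362099-115362348, + strand): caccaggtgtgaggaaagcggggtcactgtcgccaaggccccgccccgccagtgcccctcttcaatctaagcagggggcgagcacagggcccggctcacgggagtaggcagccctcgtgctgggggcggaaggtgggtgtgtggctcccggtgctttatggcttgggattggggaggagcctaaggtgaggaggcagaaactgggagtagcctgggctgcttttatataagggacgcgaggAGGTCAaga

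Each library held between 21530083 and 38074411 expected counts, the estimated number of reads per gene. Levels are given in TPM, an abundance scaled for transcript length and library size, and differences as log2 fold changes of counts with their SE, from edgeR's quasi-likelihood test with Benjamini-Hochberg adjustment over all tested genes. A gene passed both thresholds with an adjusted p up to 0.05 and a log2 change of 1 or more in size. The summed TPM of 7 hepatocyte markers, to which albumin gives the most, lay between 35793 and 65468 in liver, and in the tumors between 104471 and 124483 apart from DEN-T-WD replicate 5 at 29774. DEN-PT-WD replicate 7 was the lowest liver library in that sum. Values without either library are given where a call changes. Of the 7 markers, 2 were higher and 3 lower at the adjusted p alone in tumors against surrounding liver, where 37.7% of all genes passed. Their median log2 fold change there was -0.37. Against nonDEN-L-CD 1 was higher and 5 were lower, where 54.0% of all genes passed, with a median of -0.51. Summed TPM of 8 exocrine pancreas genes ran from 0.25 to 5089 with both low and high libraries in every group.

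In untreated liver the western diet went with higher *Cd36*, *Lpl*, *Vldlr*, *Fabp2* and *Pparg*. These 5 of the 10 genes passed both thresholds, all upward, against 5.28% of all tested genes in either direction and 3.24% upward. With *Slc27a4*, 6 passed at the adjusted p alone, as did 23.2% of all genes. DEN injection on the control diet went with higher *Cd36*, *Vldlr* and *Pparg*, 3 of 10, all upward, against 4.7% of all genes in either direction and 2.76% upward. At the adjusted p alone the same 3 passed, against 21.3%. Both comparisons share the nonDEN-L-CD libraries. Within DEN-injected mice, *Lpl* and *Vldlr* were higher on the western diet (DEN-PT-WD against DEN-L-CD), 2 of 10 against 1.9% of all genes in either direction and 1.52% upward. *Cd36* and *Pparg* passed at the adjusted p alone as well, 4 of 10 against 10.6%.

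Between the WD livers with and without DEN, DEN-PT-WD and nonDEN-L-WD, none of the 10 passed both thresholds, where 2.76% of all genes did. At the adjusted p alone *Lpl* was higher and *Slc27a2*, *Slc27a4* and *Slc27a5* were lower, 4 of 10 against 12.4% of all genes. DEN-T-WD tumors exceeded DEN-PT-WD in *Lpl* alone at both thresholds, 1 of 10 against 7.9% of all genes in either direction. At the adjusted p alone *Fabp4* was higher too and *Fabp1*, *Slc27a2* and *Slc27a5* were lower, 5 of 10 against 37.7%. The widest contrast, DEN-T-WD against nonDEN-L-CD, had *Cd36*, *Lpl*, *Vldlr*, *Fabp4* and *Pparg* higher and *Slc27a5* lower, 6 of 10 against 20.3% of all genes. *Slc27a2* and *Fabp1* were also lower at the adjusted p alone, 8 of 10 against 54.0%. The median log2 fold change of the 10 genes was 0.68 for diet in untreated liver and 0.98 for tumors against untreated control-diet liver, and that of all tested genes was 0.01 and 0.02.

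**Figure D1:**
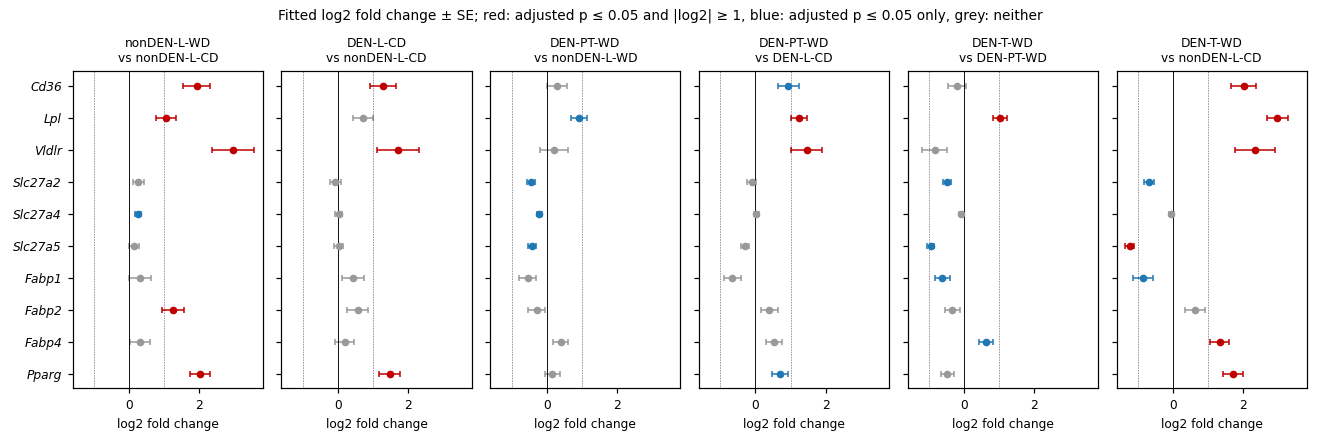
Fitted log2 fold change (x axis, with SE) of each of the 10 genes in 6 comparisons. *Vldlr*, *Pparg* and *Cd36* lie furthest to the right for diet in untreated liver, and *Slc27a5* furthest to the left in tumors, at -1.24 against nonDEN-L-CD.

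*Cd36*, on chromosome 5 (GRCm38, chr5:17781690-17888801, - strand), encodes a membrane receptor for long-chain fatty acids. The 3 nonDEN-L-CD libraries held 33.3, 37.1 and 28.4 TPM and the 4 nonDEN-L-WD libraries 133, 179, 158 and 96.6 TPM. In DEN-L-CD the level was 82.7, 114, 74.2 and 80.6 TPM. Each library of either group lay above every nonDEN-L-CD library. The log2 fold change was 1.92 ± 0.38 for diet (adjusted p = 0.000982) and 1.28 ± 0.37 for DEN (2.44-fold, adjusted p = 0.0152). Without nonDEN-L-CD replicate 2 or 3 the DEN difference was 1.33 (adjusted p = 0.0537) or 1.23 (adjusted p = 0.0604).

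In DEN-PT-WD *Cd36* ranged from 84.5 to 292 TPM with a median of 202, and in DEN-T-WD from 118 to 468 TPM with a median of 155. DEN-PT-WD replicate 7 was the lowest of its group and DEN-T-WD replicate 5 the highest of all 25 libraries. Against DEN-L-CD, DEN-PT-WD differed by 0.93 ± 0.30 (adjusted p = 0.0457), and by 1.05 (adjusted p = 0.0145) without replicate 7. The adjusted p was above 0.05 without any of 10 other libraries, DEN-L-CD replicates 1 to 4 and DEN-PT-WD replicates 1 to 5 and 8, at 0.0532 to 0.13. By limma on log2(TPM + 1) the difference was 1.18 (adjusted p = 0.00542), where the median of all tested genes moved by 0.23. Tumor and surrounding liver differed by -0.20 ± 0.25 on the log2 scale (adjusted p = 0.571). Without DEN-T-WD replicate 5 that difference was -0.60 (adjusted p = 0.0169), and the other 5 tumors reached 192 TPM at most. The order of group means was nonDEN-L-CD, DEN-L-CD, nonDEN-L-WD, DEN-T-WD and DEN-PT-WD, of which only the first step passed the adjusted p.

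**Figure D2:**
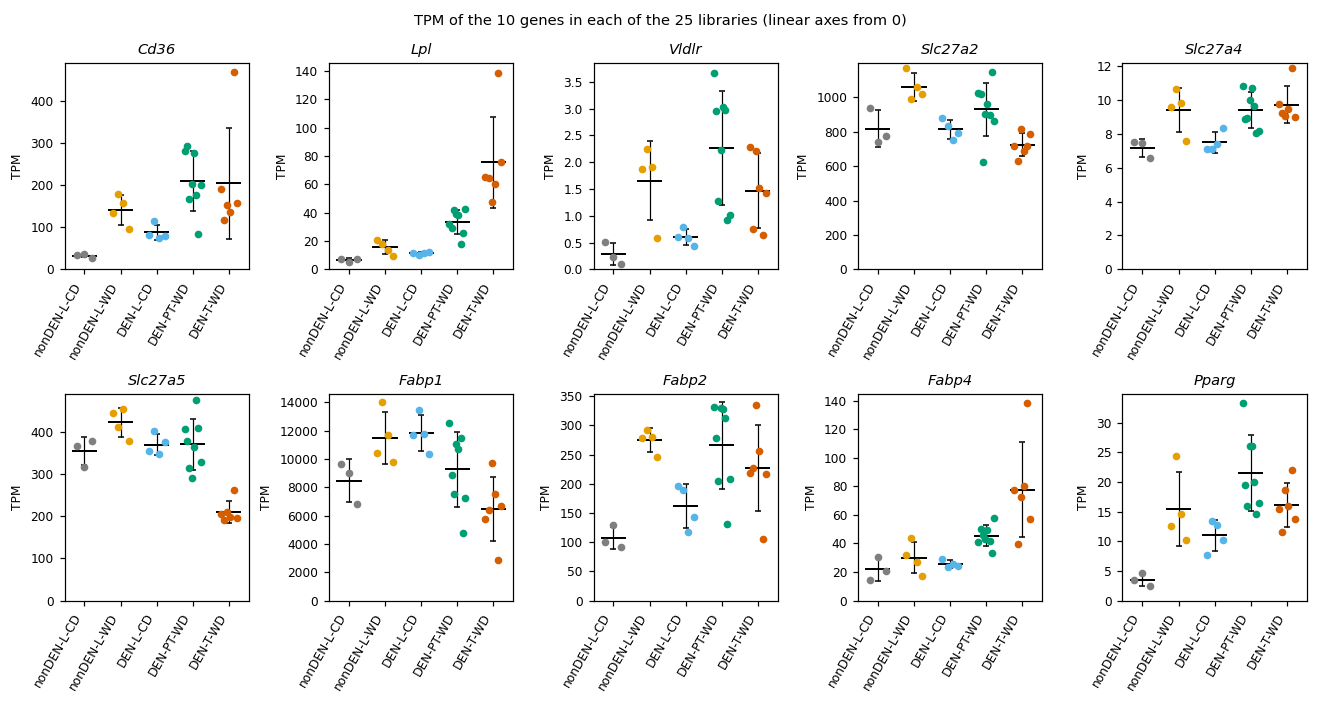
TPM (y axis, linear from 0) of the 10 genes in each of the 25 libraries by group, with the mean as a line and the SD as a bar. *Lpl* and *Fabp4* have their highest group mean in the tumors, where *Slc27a5* is lowest, and DEN-T-WD replicate 5 stands above its group in *Cd36* at 468 TPM and in *Lpl* at 139 TPM.

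*Lpl* (chr8:68880491-68907448, + strand), which encodes the enzyme that frees fatty acids from lipoprotein triglyceride, was highest in tumors. It held 7.37, 5.47 and 7.21 TPM in nonDEN-L-CD, 11.55, 10.1, 11.95 and 11.98 TPM in DEN-L-CD and 20.6, 18.1, 13.9 and 9.51 TPM in nonDEN-L-WD. The range was 18.1 to 42.9 TPM (median 35.4) in DEN-PT-WD and 47.8 to 139 TPM (median 65.0) in DEN-T-WD. Every tumor library lay above every library of the other groups. The log2 fold change was 1.02 ± 0.19 for tumor against surrounding liver (2.02-fold, adjusted p = 0.000269) and 1.24 ± 0.23 for diet in DEN-injected mice (2.36-fold, adjusted p = 0.00310).

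The tumor difference stood close to the fold threshold. It was 0.79 (adjusted p = 0.000601) without DEN-T-WD replicate 5, and 1.00, 0.93 and 0.97 without DEN-PT-WD replicates 2, 6 and 7. For diet in untreated liver the log2 fold change of *Lpl* was 1.05 ± 0.29 (adjusted p = 0.0105), and 0.90 (adjusted p = 0.0742) without nonDEN-L-CD replicate 2 or 0.89 (adjusted p = 0.0388) without nonDEN-L-WD replicate 1. DEN-PT-WD exceeded nonDEN-L-WD by 0.91 ± 0.23 (adjusted p = 0.0140), which became 1.07 without nonDEN-L-WD replicate 1 and 0.79 (adjusted p = 0.0727) without replicate 4. DEN on the control diet gave 0.72 ± 0.28 (adjusted p = 0.0719). Tumors held 7.87-fold more *Lpl* than nonDEN-L-CD liver (log2 2.98 ± 0.30, adjusted p = 4.66e-08).

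*Vldlr* (chr19:27216484-27254231, + strand) had the fewest counts of the 10 genes, with 14 to 30 expected counts in nonDEN-L-CD libraries. Its level there was 0.52, 0.23 and 0.11 TPM, against 1.88, 2.24, 1.92 and 0.58 TPM in nonDEN-L-WD and 0.60, 0.79, 0.59 and 0.44 TPM in DEN-L-CD. It ranged from 0.92 to 3.67 TPM (median 2.59) in DEN-PT-WD and from 0.64 to 2.28 TPM (median 1.47) in DEN-T-WD. In TPM nonDEN-L-WD replicate 4 came close to the control libraries and the DEN-L-CD range overlapped theirs, but in normalized counts DEN-L-CD, at 50.7 to 109.6, lay above nonDEN-L-CD, at 15.9 to 34.7. The diet difference was 2.96 ± 0.60 on counts (7.80-fold, adjusted p = 0.00134), 2.18 (adjusted p = 0.00541) on log2(TPM + 0.1) and 1.01 (adjusted p = 0.0293) on log2(TPM + 1). Tumors exceeded nonDEN-L-CD by 2.33 ± 0.57 (adjusted p = 0.00158), and by 0.90 on log2(TPM + 1), short of the fold threshold.

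For DEN on the control diet the log2 fold change of *Vldlr* was 1.71 ± 0.60 (adjusted p = 0.0452). That call was lost without nonDEN-L-CD replicate 2 or 3 or DEN-L-CD replicate 1, 2 or 3 (adjusted p from 0.0617 to 0.161), and the difference was 0.99 (adjusted p = 0.214) on log2(TPM + 0.1) and 0.33 (adjusted p = 0.552) on log2(TPM + 1). With no filter on low counts the adjusted p was 0.0641. DEN-PT-WD exceeded DEN-L-CD by 1.46 ± 0.44 (adjusted p = 0.0357), a call that did not pass without DEN-L-CD replicates 1, 3 or 4 or DEN-PT-WD replicates 1, 2 or 5 (adjusted p from 0.0540 to 0.11) or with no filter on low counts (adjusted p = 0.0517). It was 1.61 (adjusted p = 0.00477) on log2(TPM + 0.1) and 0.95 (adjusted p = 0.00524) on log2(TPM + 1), the latter short of the fold threshold. Tumors differed from the surrounding liver by -0.84 ± 0.36 (adjusted p = 0.0702), and by -1.02 (adjusted p = 0.0415) without DEN-T-WD replicate 1. Without DEN-PT-WD replicate 7 or 8 the adjusted p was 0.0309 or 0.0384.

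*Pparg* (chr6:115360951-115490399, + strand) was the member with the smallest p for diet in untreated liver. The level was 3.53, 4.65 and 2.44 TPM in nonDEN-L-CD, 12.6, 24.4, 14.7 and 10.1 TPM in nonDEN-L-WD, and 7.73, 13.4, 12.8 and 10.2 TPM in DEN-L-CD. All libraries of both groups lay above the nonDEN-L-CD range. *Pparg* was 4.06-fold higher on the western diet (log2 2.02 ± 0.29, adjusted p = 5.78e-05) and 2.78-fold higher after DEN (log2 1.48 ± 0.29, adjusted p = 0.00110).

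DEN-PT-WD held 14.7 to 33.3 TPM of *Pparg* (median 19.8) and DEN-T-WD 11.5 to 22.0 TPM (median 15.6). The peritumoral difference from DEN-L-CD was 0.71 ± 0.22 (adjusted p = 0.0437), and its adjusted p was 0.0548 to 0.161 without DEN-L-CD replicates 1 to 4 or DEN-PT-WD replicates 1, 2, 4 or 5. By limma on log2(TPM + 1) it was 0.88 (adjusted p = 0.00463), where the median of all tested genes moved by 0.23. Tumors differed from the surrounding liver by -0.48 ± 0.19 (adjusted p = 0.0511), and the adjusted p was 0.0234 to 0.0385 without DEN-T-WD replicate 3 or 5 or DEN-PT-WD replicate 3, 7 or 8. Between DEN-PT-WD and nonDEN-L-WD *Pparg* had 0.16 ± 0.22 (95% interval -0.26 to 0.59, adjusted p = 0.655).

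The diet difference of *Pparg* was smaller in DEN-injected mice than in untreated ones. This interaction, the log2 fold change of DEN-PT-WD over DEN-L-CD minus that of nonDEN-L-WD over nonDEN-L-CD, was -1.31 ± 0.36 (adjusted p = 0.0255). It was the only one of the 10 genes to pass, 1 of 10 against 2.75% of all genes, and 8.39% of all genes passed at the adjusted p alone. The adjusted p was 0.0935 without nonDEN-L-CD replicate 3, 0.0562 without nonDEN-L-WD replicate 2, 0.0543 without DEN-L-CD replicate 2, and 0.0644 and 0.104 on TPM with pseudocounts of 0.1 and 1. *Cd36* had -0.99 ± 0.46 (adjusted p = 0.182), *Fabp1* -0.97 ± 0.39 (adjusted p = 0.128) and *Vldlr* -1.50 ± 0.72 (adjusted p = 0.199). *Lpl* and *Fabp4* had 0.19 ± 0.36 and 0.20 ± 0.36, with intervals of -0.51 to 0.89 and -0.49 to 0.90.

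**Figure D3:**
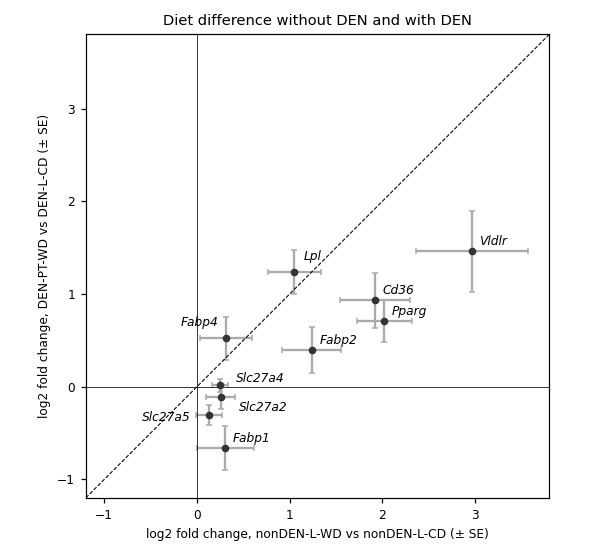
Log2 fold change for diet without DEN (x axis) against that with DEN (y axis), with SE, 1 point for each of the 10 genes, and a dashed line of equal change. *Pparg* lies at 2.02 and 0.71, below the line, and *Lpl* at 1.05 and 1.24, close to it.

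*Slc27a2* (chr2:126552407-126588243, + strand), the very long-chain acyl-CoA synthetase of liver, was the most abundant transporter. It held 939, 740 and 775 TPM in nonDEN-L-CD, 1171, 991, 1059.7 and 1017 TPM in nonDEN-L-WD and 749 to 879 TPM in DEN-L-CD. The range was 626 to 1149 TPM (median 933) in DEN-PT-WD and 629 to 813 TPM (median 717) in DEN-T-WD. Tumors had -0.49 ± 0.11 against the surrounding liver (adjusted p = 0.00148), and DEN-PT-WD had -0.44 ± 0.12 against nonDEN-L-WD (adjusted p = 0.0226). The latter had an adjusted p of 0.0682 and 0.0990 without nonDEN-L-WD replicates 1 and 4, and was -0.20 (adjusted p = 0.21) on log2(TPM + 1). Tumors had -0.67 ± 0.14 against nonDEN-L-CD (adjusted p = 0.000353) but -0.17 (adjusted p = 0.279) on log2(TPM + 1). Diet alone and DEN alone gave 0.26 ± 0.16 and -0.08 ± 0.16, neither of which passed. A noncoding gene on the other strand, Gm26697, shares 419 exon bases with *Slc27a2* and had 12 to 40 counts.

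*Slc27a5* (chr7:12988346-12998192, - strand), whose product conjugates bile acids to coenzyme A, was lowest in tumors. It held 365, 316 and 379 TPM in nonDEN-L-CD, 444, 412, 453 and 379 TPM in nonDEN-L-WD, and 353, 402, 348 and 375 TPM in DEN-L-CD. DEN-PT-WD spanned 289 to 475 TPM (median 372) and DEN-T-WD 190 to 262 TPM (median 202). No tumor library reached the lowest liver library, and the highest tumor was replicate 5. *Slc27a5* fell by 0.95 on the log2 scale from the surrounding liver (SE 0.10, adjusted p = 3.51e-07) and was 2.36-fold lower than in nonDEN-L-CD (log2 -1.24 ± 0.12, adjusted p = 4.16e-08). On log2(TPM + 1) the latter was -0.75 (adjusted p = 2.16e-05), short of the fold threshold. Without DEN-T-WD replicate 5 the difference from the surrounding liver was -0.99 (adjusted p = 2.24e-07). DEN-PT-WD differed from nonDEN-L-WD by -0.42 ± 0.11 (adjusted p = 0.0159), with 0.0505 and 0.0621 for the adjusted p without nonDEN-L-WD replicates 3 and 4 and -0.20 (adjusted p = 0.18) on log2(TPM + 1).

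*Slc27a4* (chr2:29802634-29817522, + strand), another acyl-CoA synthetase, stayed within a narrow range, from 6.56 to 11.9 TPM over all 25 libraries. The diet difference was 0.25 ± 0.09 (adjusted p = 0.0434), and its adjusted p was 0.0721 to 0.179 without nonDEN-L-CD replicate 2 or 3 or nonDEN-L-WD replicate 1, 2 or 3. DEN alone gave 0.02 ± 0.09 (95% interval -0.16 to 0.19) and tumors against surrounding liver -0.08 ± 0.06 (interval -0.20 to 0.04). DEN-PT-WD against nonDEN-L-WD was -0.22 ± 0.07 on counts (adjusted p = 0.0449) but 0.00 on log2(TPM + 1), and DEN-T-WD against nonDEN-L-CD was -0.04 on counts but 0.39 on log2(TPM + 1). The former had an adjusted p of 0.0621 to 0.111 without DEN-PT-WD replicates 2, 3, 7 or 8 or any nonDEN-L-WD library. On that TPM scale the median of all tested genes moved by 0.16 and 0.33 in these comparisons.

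Within the SLC27 family, *Slc27a2* made up 69.2% ± 2.40 (SD, n = 3) of the summed TPM of the 6 genes in nonDEN-L-CD and 76.3% ± 2.46 (SD, n = 6) in DEN-T-WD. *Slc27a5* made up 30.0% ± 2.44 and 22.2% ± 2.35. The ratio of *Slc27a2* to *Slc27a5* TPM was 1.89 to 3.12 over all livers and 2.73 to 4.01 in tumors. *Slc27a4* contributed 0.61% ± 0.07 in nonDEN-L-CD and 1.03% ± 0.12 in tumors.

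*Fabp1* (chr6:71199827-71205023, + strand) was the most abundant of the 10 genes in every library. It held 9630.3, 8995 and 6787 TPM in nonDEN-L-CD, 10446, 14008, 11694 and 9795 TPM in nonDEN-L-WD, and 11687, 13432, 11727 and 10338 TPM in DEN-L-CD. DEN-PT-WD spanned 4789 to 12560.3 TPM (median 9771) and DEN-T-WD 2838 to 9687 TPM (median 6499). The lowest library of each of these 2 groups was the one with the lowest hepatocyte marker sum. *Fabp1* fell by 0.62 on the log2 scale in tumors against the surrounding liver (SE 0.22, adjusted p = 0.0286), by 0.46 (adjusted p = 0.0471) without DEN-T-WD replicate 5 and by 0.72 (adjusted p = 0.00783) without DEN-PT-WD replicate 7. The adjusted p was 0.0521 to 0.0613 without DEN-PT-WD replicate 1 or 6 or DEN-T-WD replicate 1 or 2. Against nonDEN-L-CD the tumors had -0.85 ± 0.28 (adjusted p = 0.0126), -1.02 without DEN-T-WD replicate 3 and -0.75 (adjusted p = 0.0564) without nonDEN-L-CD replicate 1. On log2(TPM + 1) *Fabp1* had -0.55 (adjusted p = 0.0694) against the surrounding liver and -0.46 (adjusted p = 0.196) against nonDEN-L-CD. Neither diet (0.31 ± 0.31) nor DEN alone (0.44 ± 0.31) passed.

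*Fabp2* (chr3:122895072-122899506, + strand), the intestinal form, was higher on the western diet in untreated liver. It held 100.5, 129 and 91.8 TPM in nonDEN-L-CD and 279, 293, 281 and 245 TPM in nonDEN-L-WD, with no overlap. DEN-L-CD libraries had 196, 189.9, 118 and 142 TPM, DEN-PT-WD 132 to 332 TPM (median 295) and DEN-T-WD 106 to 335 TPM (median 223). The diet difference was 1.24 ± 0.32 (2.36-fold, adjusted p = 0.00697). In DEN-injected mice, where the ranges overlapped, it was 0.40 ± 0.25 (adjusted p = 0.310), and 0.68 (adjusted p = 0.0319) on log2(TPM + 1). Tumors against nonDEN-L-CD gave 0.62 ± 0.29 (adjusted p = 0.0734). Without DEN-T-WD replicate 5 that difference was 0.78 (adjusted p = 0.00974). With all libraries it was 1.01 (adjusted p = 0.00393) on log2(TPM + 1), past both thresholds, where the median of all tested genes moved by 0.33. Summed TPM of 7 enterocyte markers was at most 2.51 in nonDEN-L-CD, with *Cdx2* at 0 in every library, and at most 2.54 in nonDEN-L-WD, where *Cdx1*, *Cdx2* and *Sis* were at 0. It reached 3.32 in DEN-L-CD and 20.2 in both DEN-PT-WD and DEN-T-WD, and its part was not tested.

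The levels of *Fabp1* and *Fabp2* moved together within a group while their ratio shifted between diets. Over 25 libraries Pearson's r of their log2 CPM was 0.54, and 0.93 after the group means were removed, a description of libraries that share tissue content and depth. *Fabp1* exceeded *Fabp2* in TPM by 69.8 to 95.8 times in nonDEN-L-CD and 59.7 to 99.7 times in DEN-L-CD. On the western diet the ratio was 37.5 to 47.9 in nonDEN-L-WD, 32.0 to 37.9 in DEN-PT-WD and 26.4 to 30.7 in DEN-T-WD. The control-diet and western-diet ranges did not overlap, nor did those of tumor and surrounding liver. DEN-T-WD replicate 5 and DEN-PT-WD replicate 7, low in both genes, fell within their groups in the ratio.

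**Figure D4:**
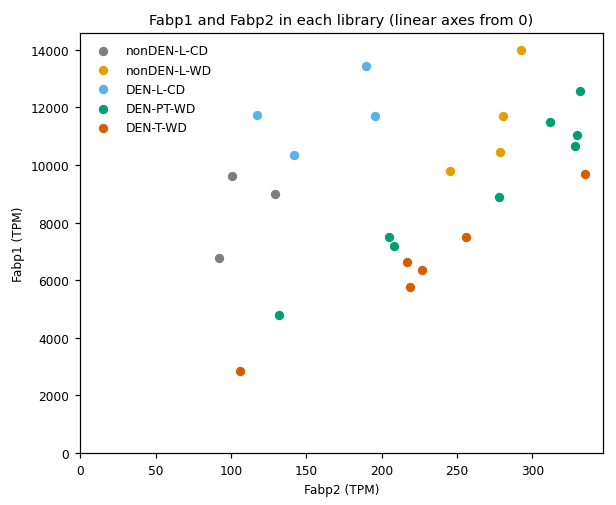
*Fabp1* TPM (y axis) against *Fabp2* TPM (x axis) in each of the 25 libraries, both axes linear from 0, coloured by group. *Fabp1* exceeds *Fabp2* by ratios of 59.7 or more in the control-diet libraries and 47.9 or less in the western-diet libraries.

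*Fabp4* (chr3:10204088-10208576, - strand), the adipocyte and macrophage form, was highest in tumors. It held 14.7, 30.6 and 20.6 TPM in nonDEN-L-CD, 31.8, 43.6, 27.1 and 17.3 TPM in nonDEN-L-WD, and 23.3 to 29.3 TPM in DEN-L-CD. DEN-PT-WD spanned 33.4 to 57.8 TPM (median 44.5) and DEN-T-WD 39.7 to 138 TPM (median 75.3). Tumors overlapped the surrounding liver, and overlapped nonDEN-L-CD in normalized counts but not in TPM. The tumor difference from the surrounding liver was 0.62 ± 0.19 (1.54-fold, adjusted p = 0.0132), and 0.43 (adjusted p = 0.0562) without DEN-T-WD replicate 5. Against nonDEN-L-CD it was 1.33 ± 0.27 (2.52-fold, adjusted p = 0.000268). Diet gave 0.32 ± 0.28 (95% interval -0.23 to 0.87).

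Markers of other cells are given beside *Lpl* and *Fabp4*, and in whole tissue fewer cells of a type and less RNA per cell cannot be told apart. Summed TPM of the 10 macrophage markers was 136 to 184 in nonDEN-L-CD, 168 to 274 in nonDEN-L-WD, 182 to 277 in DEN-L-CD, 237 to 660.2 in DEN-PT-WD and 587 to 1098 in DEN-T-WD. Of these 10 markers, 3 rose with diet in untreated liver (*Trem2*, *Gpnmb* and *Itgax*, against 3.24% of all genes), and these and *Spp1* rose in DEN-PT-WD over both nonDEN-L-WD and DEN-L-CD, where 2.76% and 1.9% of all genes passed in either direction. Tumors against nonDEN-L-CD had 5 higher and 1 lower, where 20.3% of all genes passed. In tumors against surrounding liver 1 was higher (*Spp1*) and 2 were lower (*Clec4f* and *Timd4*), with a median log2 fold change of -0.11, and 7.9% of all genes passed. *Spp1*, which is also among the bile duct markers, alone gave 60.9 to 317 TPM in DEN-PT-WD and 372 to 817 TPM in DEN-T-WD. Without it the other 9, a choice made after the values were seen, summed to 176 to 423 TPM in DEN-PT-WD and 162 to 311 TPM in DEN-T-WD. The 10 endothelial markers summed to 69.3 to 114 TPM in the other 3 groups, 119 to 167 in DEN-PT-WD and 149 to 179 in DEN-T-WD. The 8 stellate cell and fibroblast markers summed to 167 to 184 TPM in nonDEN-L-CD, 161 to 261 in nonDEN-L-WD, 175 to 214 in DEN-L-CD, 256 to 503 in DEN-PT-WD and 237 to 325 in DEN-T-WD. Of these 8, *Col1a1* and *Col3a1* rose with diet in untreated liver, in DEN-PT-WD over DEN-L-CD and in tumors over nonDEN-L-CD. The shares of all genes that passed in either direction were 5.28%, 1.9% and 20.3%. In tumors against surrounding liver 0 of the 8 passed both thresholds, against 7.9% of all genes. At the adjusted p alone 2 were higher and 3 lower, against 37.7%, with a median log2 fold change of -0.15. The part of these markers in the differences of *Lpl*, *Fabp4*, *Cd36* and *Pparg* was not tested.

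Adipocyte markers are given beside *Cd36* and *Pparg*. The 7 genes summed to 8.53 to 11.9 TPM in nonDEN-L-CD, 33.4 to 89.4 in nonDEN-L-WD, 26.4 to 38.6 in DEN-L-CD, 30.6 to 101 in DEN-PT-WD and 14.4 to 53.7 in DEN-T-WD. Of the 7, *Lep* and *Cfd* passed both thresholds for diet in untreated liver and *Cfd* for DEN. Of all genes 5.28% and 4.7% passed there in either direction. The median log2 fold change over the 7 was 1.94 and 2.17, against 0.01 and 0.02 over all tested genes. In tumors against surrounding liver *Cfd* was lower, 1 of 7 against 7.9% of all genes, with a median of -0.85. For the interaction 0 passed, with a median of -3.13 against 0.03 over all tested genes. *Cfd* alone gave 1.47 to 2.53 TPM in nonDEN-L-CD and 16.2 to 72.7 TPM in nonDEN-L-WD. Mean *Adipoq* was 0.44 TPM in nonDEN-L-CD, 2.06 TPM in nonDEN-L-WD and 2.215 TPM in DEN-L-CD, and at most 3.67 TPM in any library. Mean *Plin1* was 0.15, 0.855 and 0.825 TPM in the same groups, and at most 2.23 TPM in any library, and *Lep* was at 0 in every nonDEN-L-CD library. The part of these markers in the differences for diet, DEN, tumors and the interaction was not tested.

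**Figure D5:**
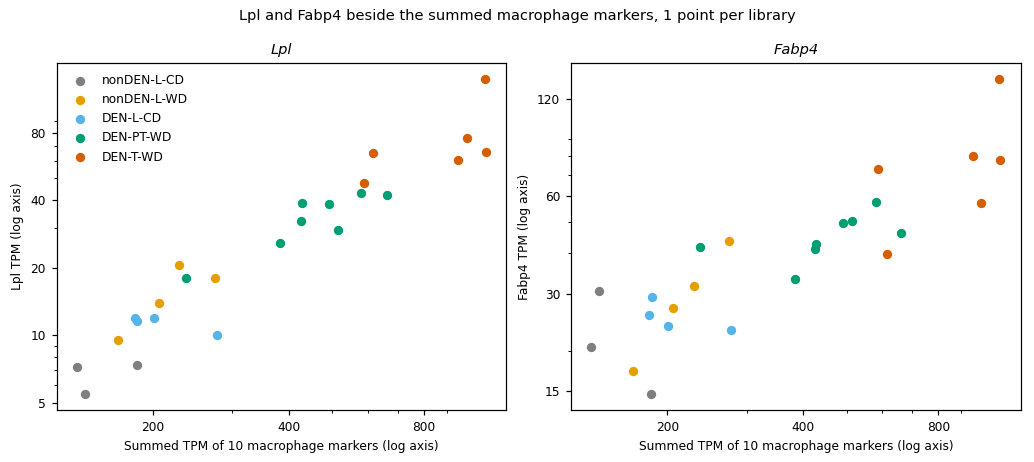
*Lpl* (left) and *Fabp4* (right) TPM against the summed TPM of 10 macrophage markers, log axes, 1 point per library. Tumors have marker sums of 587 to 1098, of which *Spp1* gives 372 to 817, and DEN-T-WD replicate 5 is the highest in both genes.

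Other genes of fatty acid handling were counted from lists of 82 genes, 76 of them tested. For diet in untreated liver 7 rose and 4 fell, against 5.28% of all genes in either direction, with a median log2 fold change of 0.15. *Cidea*, a lipid droplet protein, rose 56.5-fold (log2 5.82 ± 1.12, adjusted p = 0.000890) from 0.18 to 2.27 TPM in nonDEN-L-CD. *Mogat1*, a monoacylglycerol acyltransferase, rose 13.0-fold (log2 3.70 ± 0.67, adjusted p = 0.000515) from 0.34 to 0.68 TPM. Later values of these genes that involve nonDEN-L-CD rest on the same low levels. *Srebf1*, which drives lipogenesis, rose 5.38-fold (adjusted p = 0.000278). *Fabp5* was 3.02-fold lower (adjusted p = 0.0431), *Angptl4*, a secreted inhibitor of LPL, 2.17-fold lower (adjusted p = 0.000198) and *Acsl4*, an acyl-CoA synthetase, 2.14-fold lower (adjusted p = 0.00333). For DEN on the control diet 6 rose and 1 fell, against 4.7% of all genes. *Cidea* rose 10.8-fold, *Srebf1* 4.07-fold and the caveolar protein gene *Cav1* 3.10-fold, while *Angptl4* was 2.21-fold lower (adjusted p from 0.000157 to 0.0262).

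In DEN-PT-WD against DEN-L-CD 1 of the 76 genes rose and 1 fell, near the 1.9% of all genes that passed in either direction. They were the lipid droplet protein gene *Plin4*, 2.39-fold higher, and the acetyl-CoA synthetase gene *Acss2*, 2.08-fold lower. Tumors against surrounding liver had 8 genes up and 6 down, against 7.9% of all genes, with a median of -0.23 over the 76 genes. *Apoc2*, the cofactor that activates LPL, rose 2.83-fold to 1881 to 3206 TPM (adjusted p = 3.14e-06). *Mfsd2a*, a lysolipid transporter, was 3.41-fold lower, *Mogat1* 3.04-fold and the endothelial lipase *Lipg* 2.90-fold. Against nonDEN-L-CD, *Angptl4* in tumors was 4.48-fold lower (adjusted p = 1.53e-09) and *Apoc2* 6.38-fold higher (adjusted p = 1.00e-07), among 13 listed genes up and 10 down against 20.3% of all genes. *Cidea* was 7.88-fold higher there, *Mfsd2a* 4.80-fold and the lipase inhibitor *G0s2* 3.78-fold lower. For the interaction of DEN and diet 1 listed gene was higher (*Acsl4*, 1.09) and 8 were lower, against 2.75% of all genes, led by *Cidea* at -4.86, *Mogat1* at -2.90 and *Cav1* at -1.83 on the log2 scale.

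Genes with the most similar pattern were found by Pearson's r of log2 CPM over the 25 libraries. For *Cd36* they were *Abcc3* (0.97) and *Lgals1* (0.93), and for *Lpl* *Cep192* and *Lgals3bp* (0.97 each). *Slc27a5* was matched by *Dmgdh* and *Otc* (0.98 each), *Fabp1* by *Ttr* and *Timmdc1* (0.92 each) and *Slc27a2* by *Slc25a13* (0.92) and *Fah* (0.91). For *Slc27a4* it was *Akr7a5* (0.87), for *Fabp2* *Gpc1* and *B430212C06Rik* (0.92 each), for *Fabp4* *Tulp3* and *Fkbp1a* (0.88 each) and for *Vldlr* *Tnfrsf19* (0.93) and *Klhl5* (0.90). *Pparg* was closest to *E330011O21Rik* and *Lrrc39* (0.95 each), and among the 10 genes themselves to *Cd36* (0.88) and *Vldlr* (0.84). After group means were removed *Pparg* was closest to *Slc27a4* (0.64), then *Cd36* (0.60) and *Vldlr* (0.47). These values describe libraries that share groups, tissue content and depth.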

How the data were processed

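Polyadenylated RNA of 25 bulk mouse tissue samples was sequenced. According to the submitters' processing notes the authors used FastQC, STAR and RSEM with GRCm38, and the versions of STAR and RSEM and the annotation release are not given in the sources used here. The deposited expected counts are RSEM's estimated reads per gene, which need not be whole, and the deposited TPM values are RSEM's abundances scaled for transcript length and library size. The FPKM column was not used. Whether counting used strand is not stated.

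Expected counts were rounded, filtered with filterByExpr (minimum count 10), scaled by TMM and tested in 1 fit over all 5 groups with edgeR's quasi-likelihood test and Benjamini-Hochberg adjustment over 15625 genes (R 4.3.3, edgeR 4.0.16). Alternatives used the size factors and the Wald test of DESeq2 1.42.0, limma 3.58.1 on log2(TPM + 1) and log2(TPM + 0.1), no filter, no minimum fold, fits on the compared groups alone, a replicate block and each library left out. Gene positions were read from a GENCODE annotation of GRCm38. Intervals are 1.96 SE on either side. Tables and plots used Python 3.11.15, NumPy 2.4.6, pandas 2.3.3, SciPy 1.17.1 and Matplotlib 3.10.9. The edgeR step was tested on simulated data. The 10 genes and all lists were chosen with earlier results of these data known. Every member is named, and in each comparison the 3 pathway genes that rose furthest and the 3 that fell furthest, or fewer, out of those past both thresholds whose mean normalized count reached 100 in either group; for the interaction the same rule was applied after its values were seen. Genes of similar pattern are the 2 with the highest r for each member. Some genes these rules name are not reported here. No replicate pair agreed within sampling noise: the smallest chi-square per gene over 58 pairs was 25.4.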

Additional observations from a re-analysis of the deposited data

Results flagged for a closer look

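DEN-T-WD replicate 5, the tumor library with the lowest hepatocyte marker sum, stood far from the other tumors in 4 of the 10 genes. Its level was 468.45 TPM for *Cd36*, 138.92 TPM for *Lpl*, 11.89 TPM for *Slc27a4* and 261.79 TPM for *Slc27a5*, each the highest of its group. In all 40 groups of values were tested for such a library and 4 had one, and chance flags about 1 in 20 groups. The cause was not tested. The diet difference of *Pparg* was unequal between mice with and without DEN, with an interaction of -1.31 on the log2 scale (adjusted p = 0.0255 by edgeR). With DEN it compares liver around tumors with whole liver that can hold tumor, so it is not one of diet alone. The call held in 20 of 26 alternative fits.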

How the results depend on the processing

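With single libraries left out, the number of the 10 genes past both thresholds was 4 to 5 for diet in untreated liver, 1 to 3 for DEN on the control diet, 0 to 1 for DEN on the western diet, 1 to 3 for diet in DEN-injected mice, 0 to 2 for tumor against surrounding liver, 6 to 7 for tumor against nonDEN-L-CD and 0 to 1 for the interaction. Without a minimum fold the counts were 4 for DEN on the western diet, 4 for diet in DEN-injected mice and 5 for tumor against surrounding liver. Without the filter on low counts 1 gene passed for diet in DEN-injected mice. With limma on log2(TPM + 1) and on log2(TPM + 0.1) 1 gene, *Lpl*, passed for DEN on the western diet and 0 passed for the interaction. *Slc27a4* turned direction on these scales, to 0.0041 and 0.0048 in DEN-PT-WD against nonDEN-L-WD and to 0.39 and 0.43 in DEN-T-WD against nonDEN-L-CD, where the median of all genes also moved. On log2(TPM + 1) *Slc27a5* was -0.75 in DEN-T-WD against nonDEN-L-CD. The cause was not tested.

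Same-numbered samples did not deviate together throughout (correlations from -0.239 to 0.388), so the replicate numbers are not taken as pairs. Every sample correlated best with its own number only for DEN on the control diet, in 3 of 3. With a replicate block 0 genes passed for the interaction, where *Pparg* had -1.19 (adjusted p = 0.0531), *Vldlr* for DEN on the control diet had an adjusted p of 0.0515, *Lpl* in DEN-PT-WD against nonDEN-L-WD 0.0590, and *Slc27a2*, *Fabp1* and *Fabp4* in tumor against surrounding liver 0.0825, 0.0551 and 0.0915. In all, over the 10 genes and 7 comparisons, the block ended 13 calls at the adjusted p and added 7. With it *Fabp4* in tumor against nonDEN-L-CD had 1.08 (adjusted p = 0.0665), and *Cd36* for diet in DEN-injected mice had 1.08 (adjusted p = 0.00649). Fits on the compared groups alone ended 4 calls at the adjusted p and added 4. Among those ended was *Fabp1* in tumor against surrounding liver (adjusted p = 0.0807). Few libraries per group and the low counts of *Vldlr* limit precision.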
